A study of Mus musculus with 3 samples.

Results

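Iapp, Ppy, Qrfp, Pnmt, Ntsr2 and Gria2 are 6 of the 24335 genes in a single-cell RNA sequencing matrix of the mouse epididymis, a long coiled tube that sperm pass through, and mature in, after leaving the testis. They were taken by name, as hormone, neuropeptide and transmitter genes that mark epithelial cell types in these same libraries. Their levels in regions and cell classes are therefore a description, and no test is made of them. The groups were the caput, corpus and cauda of untreated wild-type C57BL/6 mice (written C57Bl/6J in the design text) aged 56 days, with 1 library per region. The labels do not tell how many animals went into each library, and cells of 1 library are not replicates. Intervals given below are 95% intervals that cover counting error only.

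The epididymal epithelium is built mainly of principal cells, which secrete and absorb the proteins of the duct fluid, of clear cells, which acidify that fluid with a proton pump, and of basal cells, which lie beneath them and carry keratins of stratified epithelia. The 6 genes belong to systems best known elsewhere. Iapp encodes amylin, a satiety peptide that pancreatic beta cells release with insulin. Ppy encodes pancreatic polypeptide, an islet hormone of the neuropeptide Y family, and Qrfp encodes the precursor of RFamide peptides that act on feeding in the hypothalamus. Pnmt encodes the enzyme that turns noradrenaline into adrenaline in the adrenal medulla. Ntsr2 encodes a receptor for the gut and brain peptide neurotensin, and Gria2 a subunit of the AMPA receptor, an ion channel opened by glutamate. The group thus holds 3 peptide precursors, 1 enzyme and 2 receptor genes.

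Peptide hormones are cut out of longer precursors at neighbouring lysine and arginine residues, so the coding sequences of the 3 precursor genes are shown with such residues marked. Each is the reading frame without its stop codon (for Qrfp from base 73, the base after its earliest such site), 5′ to 3′ on the coding strand, from the GENCODE M21 transcripts of GRCm38. Capitals mark side-by-side codons for lysine or arginine in frame, whether or not the precursor is cut there. The frames are 279 bases long in Iapp, 300 in Ppy and 372 in Qrfp.
Iapp: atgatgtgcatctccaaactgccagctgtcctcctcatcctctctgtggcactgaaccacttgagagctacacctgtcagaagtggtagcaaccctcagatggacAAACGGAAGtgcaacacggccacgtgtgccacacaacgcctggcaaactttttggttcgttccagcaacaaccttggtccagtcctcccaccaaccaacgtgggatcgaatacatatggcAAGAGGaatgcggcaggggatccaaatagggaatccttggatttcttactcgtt
Ppy: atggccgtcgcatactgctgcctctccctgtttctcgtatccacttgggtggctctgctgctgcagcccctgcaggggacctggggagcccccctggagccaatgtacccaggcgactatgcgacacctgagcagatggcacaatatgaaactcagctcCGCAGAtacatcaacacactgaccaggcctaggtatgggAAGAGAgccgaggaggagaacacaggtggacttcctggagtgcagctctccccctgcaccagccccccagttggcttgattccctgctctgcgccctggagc
Qrfp: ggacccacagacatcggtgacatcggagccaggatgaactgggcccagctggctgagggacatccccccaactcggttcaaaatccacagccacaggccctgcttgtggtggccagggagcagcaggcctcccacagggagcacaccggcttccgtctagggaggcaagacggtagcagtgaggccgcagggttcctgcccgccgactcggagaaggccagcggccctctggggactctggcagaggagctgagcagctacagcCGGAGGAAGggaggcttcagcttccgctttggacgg
The frame of Iapp holds 3 such pairs, 2 of them in 1 run of neighbouring codons, and amylin itself starts with the last codon of that run and ends before the later pair. Ppy holds 2 pairs, the earlier of them within the mature hormone, and Qrfp 3, of which 2 lie in the stretch shown. In the same annotation Iapp spans chr6:142298423-142303961 on the plus strand in 2 coding exons, Ppy chr11:102099930-102101319 on the minus strand in 2 coding exons, and Qrfp chr2:31806166-31810580 on the minus strand in 1 coding exon. Pnmt spans chr11:98386450-98388181 (plus), Ntsr2 chr12:16653382-16660227 (plus) and Gria2 chr3:80681450-80802835 (minus). The span of Iapp overlaps Slco1a5, a transporter gene on the opposite strand, and the sources used here do not tell whether counting used the strand.

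Kept were the cells in which at least 200 genes were seen, namely 4939 from the caput, 4831 from the corpus and 4785 from the cauda, with 41462261, 21279926 and 18218645 unique molecular identifiers (UMIs, one per captured RNA molecule). The median cell held 5077 UMIs in the caput, 2654 in the corpus and 2198 in the cauda, and 23 cell barcodes occurred in more than 1 library. Mitochondrial UMIs exceeded 20% in 3.38% of the cells of the caput, 28.5% of those of the corpus and 25.9% of those of the cauda. Haemoglobin RNA (Hbb-bs, chosen after its values were seen) was seen in at least 87.4% of the cells of each of 6 classes in every region, given as a measure of free RNA in these libraries. With 1 library per region, a difference between regions cannot be told apart from one between libraries.

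Cell classes were gated on markers that hold none of the 6 genes. A cell was gated as clear with at least 3 clear-cell markers seen and 25 of their UMIs per 10000, as basal with at least 3 markers and 8 UMIs per 10000, and as principal from 600 principal-marker UMIs per 10000 in caput cells, or 300 in those of the other regions. The principal gate held 2482 caput, 2103 corpus and 711 cauda cells, the clear gate 515, 337 and 103, and the basal gate 335, 147 and 64. These classes are ranges of a score: 14.4% of the gated cauda principal cells lay within 25% above the cut, against 4.15% in the caput and 6.42% in the corpus. Cells that passed several gates (711 caput, 386 corpus, 265 cauda) belong to no class. Macrophage, T or NK, endothelial, fibroblast and erythroid cells, 441 in the caput, 923 in the corpus and 2232 in the cauda, serve as background cells, in which UMIs of these genes may be free RNA. In every one of the 9 combinations of region and class, the 10 leading genes held no marker of another class, and those of caput and cauda principal cells held none of their own either.

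**Figure D1:**
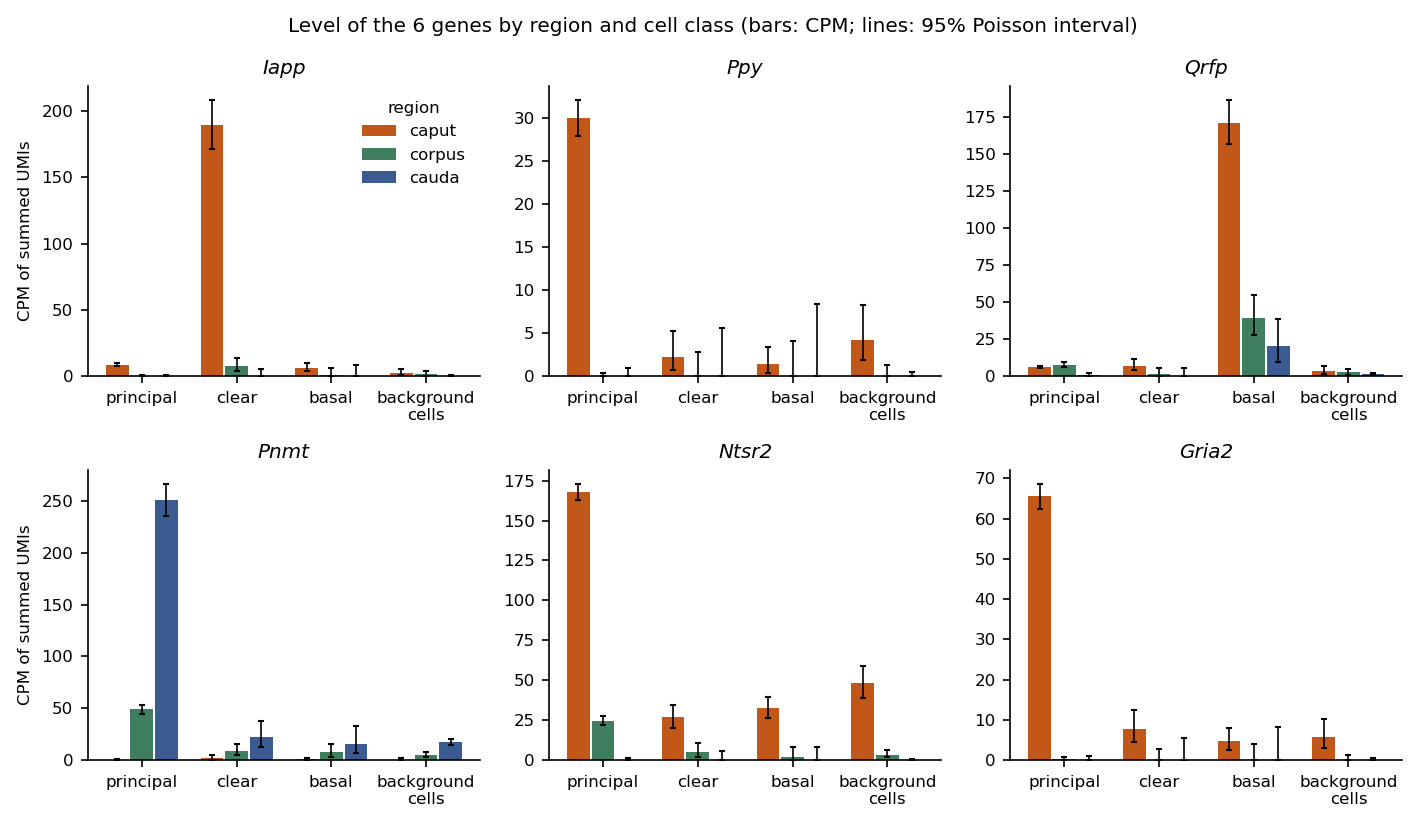
Level of each of the 6 genes in CPM (UMIs per 1000000, vertical axis) in the summed cells of a class, by class (horizontal axis) and region (colour), with exact Poisson 95% intervals as lines. Iapp stands highest in caput clear cells at 189.6 CPM, Qrfp in caput basal cells at 171 CPM, Pnmt in cauda principal cells at 251 CPM, and Ppy, Ntsr2 and Gria2 in caput principal cells.

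The level of a gene in a class, written CPM, is its UMIs per 1000000 UMIs of the summed cells. A gene was called between 2 groups where the levels differed at least 4-fold with an interval beyond 2-fold, among genes with at least 10 UMIs in the groups together. In principal cells of the caput over the corpus, 4 of the 6 genes were called higher (Iapp, Ppy, Ntsr2 and Gria2) and 1 lower (Pnmt), where 5.81% of all genes tested were called higher and 6.84% lower. Over the cauda, caput principal cells were called higher for 5 of the 6 and lower for Pnmt, beside 5.53% and 6.77% of all genes. Of the 3 genes with enough UMIs in corpus over cauda principal cells, Qrfp and Ntsr2 were called higher and Pnmt lower, beside 2.73% and 1.90% of all genes.

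Clear and basal cells gave fewer calls. In clear cells 2 of 5 genes tested were called in caput over corpus (Iapp and Ntsr2 higher, background 2.47% of genes either way), 3 of 5 in caput over cauda (Iapp and Ntsr2 higher, Pnmt lower, background 3.56%) and 0 of 2 in corpus over cauda (background 1.42%). In basal cells 2 of 4 were called in caput over corpus and 2 of 4 in caput over cauda, Qrfp and Ntsr2 higher each time, where 1.37% and 2.15% of genes were called, and 0 of 2 in corpus over cauda (0.906%).

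Against the other cells of the same library, caput principal cells were called for 3 of 6 genes (Gria2 higher, Iapp and Qrfp lower, where 19.7% of all genes were called). Caput clear cells were called higher for Iapp and lower for 3 genes, beside 3.13% and 3.77% of all genes, and caput basal cells higher for Qrfp and lower for 4, beside 3.42% and 3.45%. In the corpus 1 of 4 genes was called in principal cells (Iapp lower, 18.1% of all genes), 1 of 4 in clear cells (Iapp higher, 7.07%) and 3 of 4 in basal cells (Qrfp higher, Pnmt and Ntsr2 lower, 5.32%). In the cauda 1 of 2 was called in principal cells (Pnmt higher, 18.8%), 0 of 2 in clear cells (8.61%) and 2 of 2 in basal cells (Qrfp higher, Pnmt lower, 6.37%). Since the genes were chosen as markers from these libraries, nothing is read from these counts against the background shares.

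Iapp was a caput gene whose level was highest in clear cells, with most of its UMIs in a few cells of mixed gates. Its level was 189.6 CPM (172 to 209; 419 UMIs) in caput clear cells, 7.47 CPM (3.58 to 13.7; 10 UMIs) in corpus clear cells and 0 in cauda clear cells. No Iapp UMI was found in any of the 4785 cauda cells, which allows up to 0.2025 CPM there. Caput clear cells were 25.4-fold above corpus clear cells (13.7 to 53.4). They were 42.0-fold above cauda clear cells with the count of 0 set to 3 UMIs over the group (lower limit 34.0). Cluster 8 held most clear cells of the caput (487), and cluster 17 most of those of the corpus (323) and cauda (84). Caput clear cells were 13.8-fold above the other caput cells (12.1 to 15.7), and corpus clear cells 6.47-fold above the other corpus cells (2.75 to 14.1). Caput principal and basal cells held 8.30 and 6.02 CPM, and caput background cells 2.09 CPM from 4 UMIs. The principal level was 11.3-fold above that of cauda principal cells, with the count of 0 set to 3 UMIs (lower limit 9.12). That call ended without the 5% of cells with the most UMIs, at a log2 ratio of 0.82. Basal cells were called lower than the other caput cells, yet without the 1% of cells with the most Iapp UMIs their log2 ratio was 0.61, against -2.02 with all cells.

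The mean level of Iapp in clear cells hides a narrow distribution. Of the 515 caput clear cells 39 (7.57%) had an Iapp UMI, against 0.907% of background cells, at median depths of 3784 and 3340 UMIs. Thinned to 1000 UMIs per cell, the shares were 3.50% (2.08 to 5.47) and 0.227% (0.00575 to 1.26). Caput principal cells thinned alike kept 0.323% (0.140 to 0.636), whose interval overlaps that of background cells. Over the whole caput library 960 Iapp UMIs lay in 165 cells, and the 5 cells with the most held 60.3% of them. These cells had 148, 111, 111, 111 and 98 Iapp UMIs, and in 4 of them the level within the cell was between 18720 and 24850 CPM. The 11 caput cells with at least 10 Iapp UMIs held 720 of the library's 960. Of these 11 cells 4 passed the clear gate alone, 4 several gates, 2 the principal gate and 1 none, and each had between 3 and 9 clear-cell markers, where 28.6% of caput cells had at least 3. The 4 clear-gated cells held 111, 111, 98 and 11 of the 419 Iapp UMIs of caput clear cells, so the class level rests mostly on them. Only 7 of the 11 reached 25 clear-marker UMIs per 10000, where 15.3% of caput cells did. The cell with 148 Iapp UMIs, in smooth muscle or pericyte cluster 3, held 65.5 clear-marker and 63.8 smooth-muscle-marker UMIs per 10000. The 2 principal-gated cells, of 47353 and 47074 UMIs, held 9.93 and 10.8 clear-marker UMIs per 10000. They held 111 and 32 of the 223 Iapp UMIs of caput principal cells. The level of 31.6 CPM in caput principal cluster 2 came mostly from 1 cell of 47353 UMIs, with 111 of the 119 Iapp UMIs there.

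**Figure D2:**
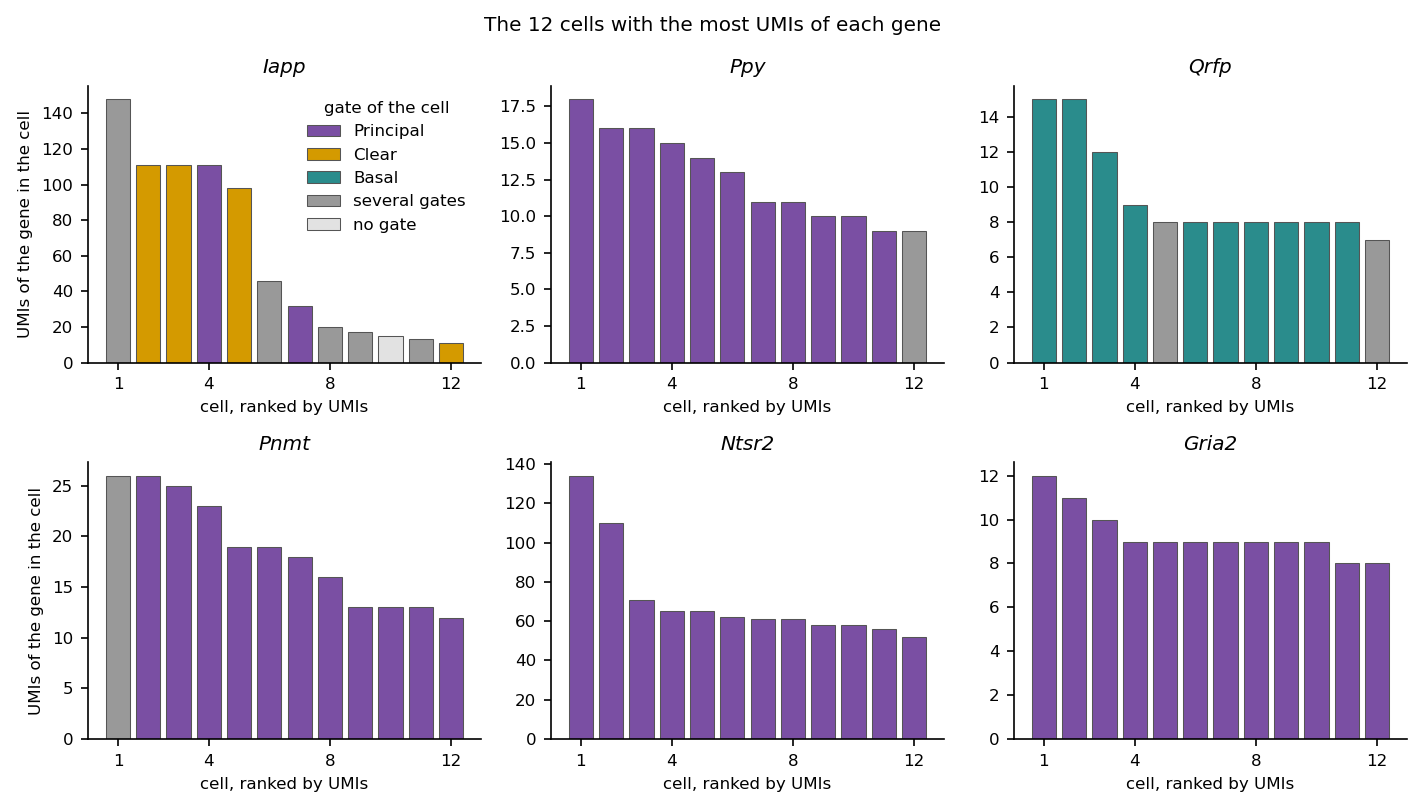
The 12 cells with the most UMIs of each gene, ranked along the horizontal axis, with the UMIs of that gene in the cell on the vertical axis and the gate of the cell as colour. For Iapp the bars drop from 148 to 11 UMIs within 12 cells of mixed gates, while for Ppy, Ntsr2, Gria2 and Pnmt nearly all are principal-gated and for Qrfp mostly basal-gated.

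Slco1a5, on the opposite strand, was also a clear-cell gene but did not follow Iapp across regions (it was chosen after its values were seen). Its level was 448 CPM in caput, 431 CPM in corpus and 372 CPM in cauda clear cells, and it was seen in 78.8%, 70.3% and 67.0% of them. The 11 caput cells rich in Iapp held 17 Slco1a5 UMIs in 6 cells beside their 720 Iapp UMIs. Markers of endocrine or chromaffin cells, 4 of 8 listed being in the matrix, summed to 14 UMIs in the caput library, 30 in the corpus and 35 in the cauda, with Chga and Th at 0 in the caput.

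Ppy was found in the caput alone, in principal cells. It had 916 UMIs in 398 caput cells (8.06%) and none in the 4831 corpus and 4785 cauda cells, which allows up to 0.173 and 0.2025 CPM there. Caput principal cells held 29.9 CPM (27.9 to 32.1), caput clear cells 2.26, caput basal cells 1.34 and caput background cells 4.18 CPM. With counts of 0 set to 3 UMIs, the principal level was 114-fold above that of corpus principal cells (lower limit 92.7). It was 40.8-fold above that of cauda principal cells (lower limit 33.1), the cauda ratio being lower because fewer cauda cells were gated. Against all other caput cells the principal level was 3.90-fold higher (3.20 to 4.80), short of the 4-fold rule. Against the cells that passed exactly 1 other gate the log2 ratio was 3.58, which passed it.

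Among caput principal cells Ppy stood highest in 1 of 6 clusters, those with at least 50 such cells in a clustering made without the 6 genes. These hold 2371 of the 2482 cells, and the other 111 held 7.87 CPM. Cluster 1, led by Lypd8, C1qtnf9 and Pmel, held 712 of the 804 principal UMIs, at 83.8 CPM (77.7 to 90.2), with 265 of 859 cells (30.9%) positive at a median depth of 6046 UMIs. The 5 other clusters lay between 0.590 and 12.5 CPM. Over the whole gate 13.2% of cells had a Ppy UMI, against 1.36% of background cells at a lower depth. After thinning these shares were 2.46% (1.89 to 3.15) and 0.682% (0.141 to 1.98), whose intervals overlap. No cell had more than 18 Ppy UMIs, and the top 5 held 8.62%, against 60.3% for Iapp.

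Qrfp was called higher in basal than in other cells of all 3 regions, and its basal level was highest in the caput. Basal cells held 171 CPM (156 to 186) in the caput, 39.5 CPM (27.6 to 54.6) in the corpus and 20.3 CPM (9.29 to 38.6) in the cauda, from 511, 36 and 9 UMIs. The caput level was 4.33-fold above the corpus (3.09 to 6.25) and 8.41-fold above the cauda (4.40 to 18.5). Corpus and cauda basal cells differed 1.94-fold with an interval of 0.918 to 4.59, which was not called. Basal cells stood 16.5-fold (14.5 to 18.9), 5.95-fold (4.0 to 8.66) and 15.7-fold (6.40 to 35.2) above the other cells of the caput, corpus and cauda library. The cauda call rests on 9 UMIs and was lost without the 1% of cells with the most Qrfp UMIs, or with 50 UMIs required; T or NK cells of the cauda held 23.9 CPM (6.53 to 61.3) from 4 UMIs. With classes taken from the clustering in place of the gates, the caput over corpus log2 ratio of basal cells was 1.70 and no longer called.

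A Qrfp UMI was seen in 170 of 335 caput basal cells (50.7%), 22 of 147 corpus basal cells (15.0%) and 6 of 64 cauda basal cells (9.38%), at median depths of 6398, 4128 and 4138 UMIs. In background cells the shares were 1.36%, 0.758% and 0.403%. After thinning, 12.2% of caput basal cells (8.93 to 16.2) and 0 of 440 caput background cells kept one. Thinned corpus basal cells gave 2.04% (0.423 to 5.85), and 0 of 63 cauda basal cells kept a UMI, which allows up to 5.69%. Thinned background cells kept 0.108% (0.00275 to 0.603) in the corpus and 0.103% (0.0124 to 0.370) in the cauda. Both intervals overlap those of the basal cells of their region. Different clusters held the basal cells of the caput (cluster 5, 310 cells) and of the corpus and cauda (cluster 28, 125 and 57 cells).

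Principal cells also held Qrfp UMIs, at 5.99 CPM in the caput, 7.60 CPM in the corpus and 0.734 CPM in the cauda. Caput over corpus principal cells gave a ratio of 0.789 (0.604 to 1.04), while caput over cauda gave 8.16 (2.74 to 40.0) and corpus over cauda 10.4 (3.43 to 51.2), the cauda count being 3 UMIs. Among the 5 corpus clusters with at least 50 such cells the level was highest in cluster 15, led by Spint4, Ap1s2 and Gc, at 39.2 CPM (27.8 to 53.8) in 19 of 179 cells, and between 0 and 8.63 CPM in the 4 other principal clusters. Corpus cluster 15 thus reached the level of corpus basal cells (39.5 CPM). Clear cells held 6.79 and 1.49 CPM in the caput and corpus and none in the cauda.

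Pnmt was the gene of the distal duct: its level in principal cells was 0.335 CPM in the caput, 48.8 CPM (44.9 to 53.1) in the corpus and 251 CPM (236 to 267) in the cauda. The UMIs behind these levels were 9, 559 and 1025. Caput principal cells were 146-fold below corpus principal cells (76.2 to 320.4) and 749-fold below cauda principal cells (393 to 1642). Corpus principal cells were 5.14-fold below those of the cauda (4.63 to 5.71). The whole caput library held 16 Pnmt UMIs in 16 cells.

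Within the distal regions Pnmt was spread over principal cells more evenly than Iapp was over clear cells. A UMI was seen in 328 of 2103 corpus principal cells (15.6%) and 305 of 711 cauda principal cells (42.9%), at median depths of 2722 and 2232 UMIs, against 1.30% and 5.78% of background cells at 2717 and 3236 UMIs. Thinned, the principal shares were 3.88% (3.09 to 4.80) in the corpus and 16.5% (13.6 to 19.8) in the cauda, and the background shares 0.542% and 2.57%. The largest cell held 26 UMIs and the top 5 cauda cells 7.76% of the library's total. In the cauda 262.5 CPM (246 to 279) stood in cluster 27, with 286 of 576 cells (49.7%) positive, and 85.2 CPM (44.1 to 149) in the 120 principal-gated cells of cluster 26. The median of those cells was 1052 UMIs, their leading genes included Ogn, Penk, C1qc and Hbb-bt with no principal marker among them, and the cluster as a whole passed no gate. In the corpus the 5 clusters with at least 50 principal-gated cells ran from 9.29 CPM in cluster 15, where Qrfp was highest among them, to 61.6 CPM in cluster 32. The 214 corpus principal cells in smaller clusters held 61.9 CPM (48.8 to 77.4) together. The corpus cluster with the most cells, 19, was led by haemoglobin genes and Lyz2 and held 39.3 CPM.

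Cauda principal cells were 6.98-fold above the other cauda cells in Pnmt (6.27 to 7.78). Corpus principal cells were 3.56-fold above the other corpus cells (2.94 to 4.33), short of the rule with library totals and past it with the TMM and median-of-ratios scalings, at log2 ratios of 2.17 and 2.18. Clear and basal cells of the cauda held 22.6 and 15.8 CPM, beside 17.5 CPM in background cells. Those of the corpus held 8.96 and 7.67 CPM, beside 4.75 CPM in background cells. All 4 of these class levels had intervals that included the background level. The call of Pnmt as lower in caput than in cauda clear cells thus concerns a cauda level not told apart from background.

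**Figure D3:**
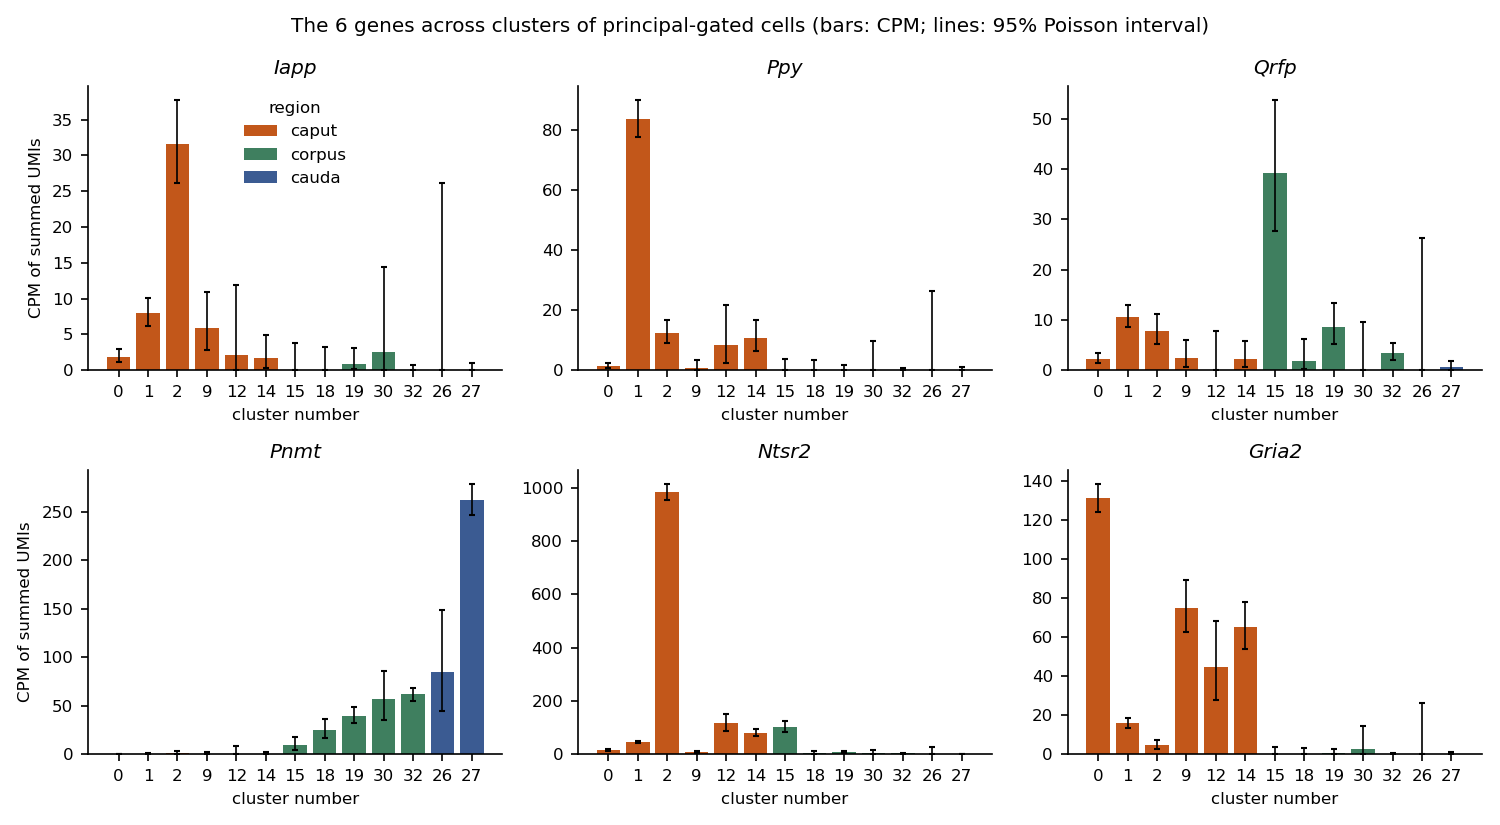
Level of each gene in CPM (vertical axis) across the clusters with at least 50 principal-gated cells of a region (horizontal axis, cluster numbers; colour gives the region), with exact Poisson 95% intervals as lines. Ppy peaks in caput cluster 1 at 83.8 CPM, Ntsr2 in caput cluster 2 at 984 CPM, Gria2 in caput cluster 0 at 131.5 CPM, Qrfp in corpus cluster 15 at 39.2 CPM and Pnmt in cauda cluster 27 at 262.5 CPM.

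Among principal, clear, basal and background cells, Ntsr2, a neurotensin receptor gene, was highest in caput principal cells and low or absent beyond the corpus. Principal cells held 168 CPM (163 to 173) in the caput, 24.7 CPM (21.9 to 27.8) in the corpus and 0.245 CPM in the cauda, from 4513, 283 and 1 UMIs. The caput level was 6.80-fold above the corpus (6.03 to 7.69) and 686-fold above the cauda (123 to 27120). The corpus level was 101-fold above the cauda (18.0 to 4003), on that single cauda UMI.

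Caput cluster 2, led by Anks1b, Otof and Slc39a8, held 3706 of the caput principal UMIs of Ntsr2. There the level was 984 CPM (953 to 1016) and 261 of 293 cells (89.1%) were positive, at a median depth of 9130 UMIs. The 5 other caput clusters with at least 50 principal-gated cells ran from 7.08 CPM in cluster 9 to 117 CPM in cluster 12, which was led by the stromal genes Cilp and Fgf10. Of the 5 corpus clusters with at least 50 principal-gated cells, cluster 15 stood highest at 103 CPM (84.0 to 126), with 44 of 179 cells positive (24.6%). The 214 corpus principal cells in smaller clusters held 117 CPM (99.1 to 138), and 134 of the 283 corpus principal UMIs lay in 35 corpus cells of cluster 2, at 464 CPM. Of the caput cells, 150 had at least 10 Ntsr2 UMIs and held 69.6% of the total.

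Ntsr2 UMIs were common outside principal cells too. The 308 caput cells that passed no gate held 175.7 CPM (153.9 to 199.7; 234 UMIs), with 14.6% positive. Those that passed several gates held 78.3 CPM. Caput background cells held 48.0 CPM (38.7 to 58.9) with 10.7% positive, caput clear cells 26.7 CPM with 7.18% positive and caput basal cells 32.4 CPM with 14.3% positive. Thinned, caput principal cells kept 9.69% (8.56 to 10.9), background cells 3.64% (2.09 to 5.84), clear cells 2.14% and basal cells 1.19%, so that clear and basal cells are read as background. The calls of Ntsr2 in caput clear and basal cells over those of other regions thus concern levels no higher than that of caput background cells. Of the 92 UMIs of those background cells, 30 lay in 1 endothelial cell, and of the 97 caput basal UMIs 18 lay in 1 cell. The basal level is therefore not read as lying below background. Corpus principal cells kept 1.87% (1.33 to 2.54), beside 0.325% (0.0672 to 0.948) of background cells. Caput principal cells were 2.69-fold above all other caput cells (2.50 to 2.89) and corpus principal cells 2.51-fold above theirs (1.98 to 3.19), both short of the rule. Each passed it under 2 alternative settings, at log2 ratios of 2.34 and 2.52 in the caput and 2.16 and 2.74 in the corpus.

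Gria2, the AMPA receptor subunit, was a gene of caput principal cells. They held 65.5 CPM (62.5 to 68.7; 1760 UMIs), against 0.175 CPM (2 UMIs) in corpus principal cells and 0 in cauda principal cells. The whole corpus library held 3 Gria2 UMIs and the cauda library none. The caput level was 375-fold above the corpus (104 to 3099) and, with the cauda count of 0 set to 3 UMIs, 89.2-fold above the cauda (lower limit 72.5). It was 4.47-fold above the other caput cells (3.88 to 5.18), and at a log2 ratio of 1.82 with classes from the clustering it no longer met the rule.

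Gria2 was spread over many caput cells: none had more than 12 UMIs, and the top 5 held 2.58% of the library's total. Of the caput principal cells 763 (30.7%) had a UMI, beside 2.27% of background cells, and 6.54% (5.60 to 7.59) beside 0.682% (0.141 to 1.98) after thinning. Cluster 0, led by Tecta, Ffar2 and Teddm2, held 131.5 CPM (124 to 139) with 518 of 932 cells positive (55.6%). Cluster 9 held 75.0 CPM, cluster 14, led by the mitosis genes Plk1, Cenpf and Kif2c, 65.3 CPM and cluster 12 44.6 CPM. Clusters 1 and 2, where Ppy and Ntsr2 stood highest, held 15.8 and 4.51 CPM. Clear, basal and background cells of the caput held 7.69, 4.68 and 5.74 CPM.

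**Figure D4:**
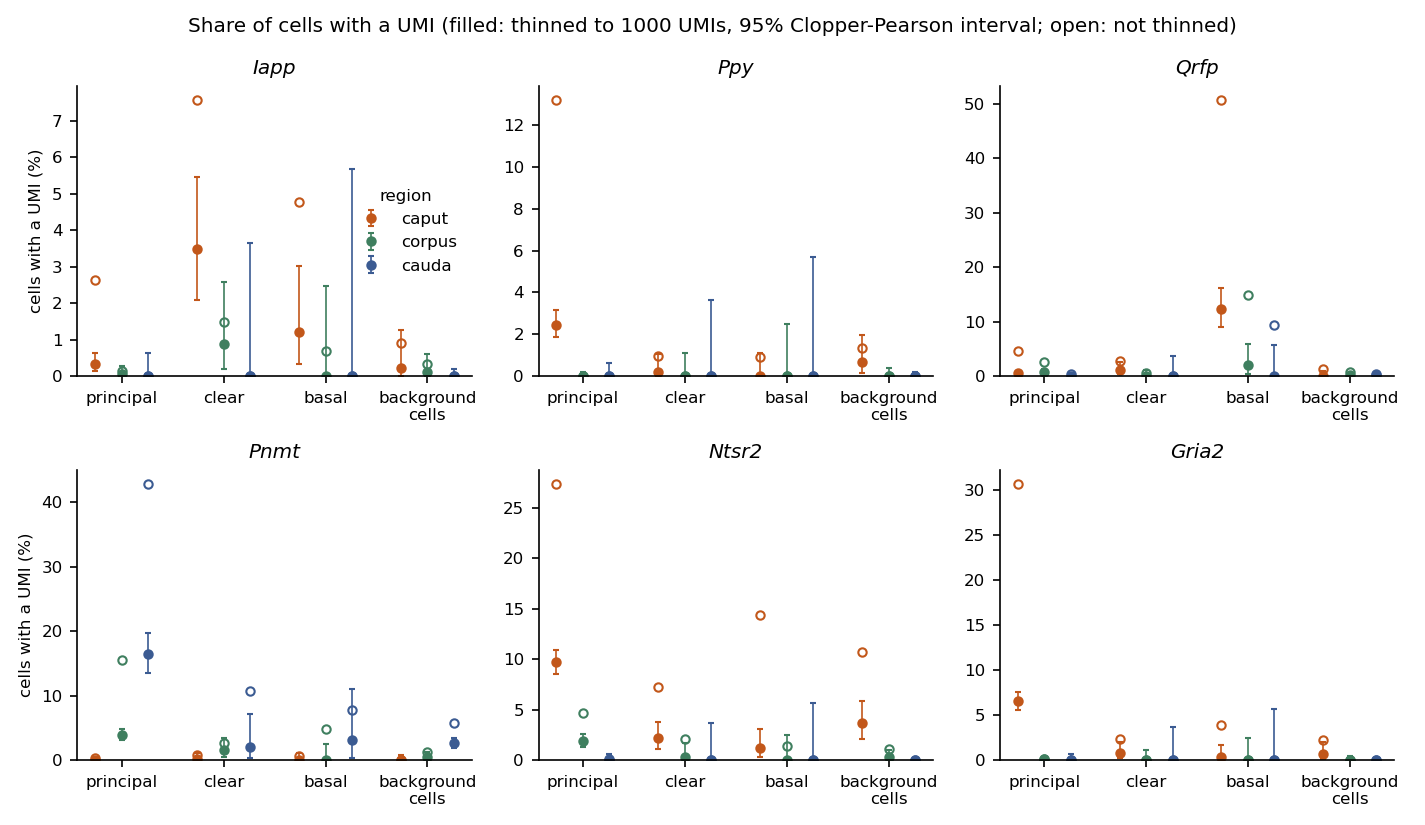
Share of cells with at least 1 UMI of each gene in percent (vertical axis), by class (horizontal axis) and region (colour); filled points are shares after thinning each cell to 1000 UMIs, with Clopper-Pearson 95% intervals, and open points the shares before thinning. Caput basal cells lead for Qrfp at 50.7% before and 12.2% after thinning, and cauda principal cells for Pnmt at 42.9% and 16.5%.

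The 3 genes of caput principal cells thus stood highest in 3 different clusters, and their overlap within single cells is given next. Of the 328 caput principal cells with Ppy, 32 (9.76%) also had Gria2, where 30.7% of all caput principal cells had it. Of the 679 with Ntsr2, 20.8% had Gria2. Of the 763 with Gria2, 4.19% had Ppy, against 13.2% in the gate, and 18.5% had Ntsr2, against 27.4%. Cells with Ppy had Ntsr2 in 32.6%, against 27.4% in the gate. Cells with any of these genes were deeper than the gate as a whole, whose median was 7361 UMIs: the median was 11620 in cells with Ppy and 11895 in cells with Gria2.

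For each of the 6, the genes with the most similar pattern over 28 combinations of region and gate are given as a description. The measure was Pearson's r of log2(CPM + 1) among 14626 genes, and combinations of 1 region share their library and depth. Iapp was nearest to Sftpd (r = 0.81), S100g (0.77), Ecel1 (0.77), Map3k13 (0.75) and Clec2l (0.72), all highest in caput clear cells. Ppy was nearest to Cftr, a chloride channel gene (0.91), Htr5b, a serotonin receptor gene (0.90), and Xlr3c (0.89). Qrfp was nearest to Edaradd, Cldn16 and Gjb5 (0.80 each), Krt17 and Dlk2 (0.79 each), all highest in basal cells of a region. Pnmt was nearest to Cwh43 (0.90), which is a gate marker, Defb40 and Akr1b7 (0.87 each), Ltf (0.86) and Defb9 (0.84). Ntsr2 was nearest to Agr2 (0.93) and to Lipi, Mroh2a and the defensin gene Defb15 (0.91 each). Gria2 had genes known only by clone names at its 4 highest places and Vip, a peptide hormone gene, at the fifth (0.91). Over 49 combinations of region and cluster, Tecta and Krt23 reached 0.99 for Gria2, Rnase13 0.95 for Ntsr2, Defb9 0.93 for Pnmt and Fa2h 0.88 for Ppy. Dlk2 reached 0.82 for Qrfp. For Iapp, Sftpd and Cyp1a1 reached 0.72 each, both highest in caput clear cluster 8. Cav3 (0.71) was highest in caput smooth muscle or pericyte cluster 3. Teddm1b and Kirrel3 (0.70 each) were highest in caput principal clusters 1 and 0.

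The partners of the 6 genes were looked up in 9 lists, each read over its genes with at least 20 UMIs in all cells. The lists were drawn up knowing earlier results of these libraries, and each count given stands beside the shares of all genes given above.

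Of the amylin and calcitonin family, 6 of 9 genes had enough UMIs, and in caput over corpus principal cells 0 were called higher and 2 lower, with a median log2 ratio of -0.30 beside -0.01 over all genes. Those lower were Ramp1, at 9.46 CPM in caput, 708 CPM in corpus and 1034 CPM in cauda principal cells, and Ramp3, at 30.6, 347.5 and 19.6 CPM. Both encode membrane proteins that turn the calcitonin receptor into an amylin receptor. Ramp2 and Calcrl, which together form the adrenomedullin receptor, stood in background cells, at 455 and 194.7 CPM in the caput. Adm, the precursor of adrenomedullin, was a basal-cell gene at 205 CPM in the caput, 183 CPM in the corpus and 192 CPM in the cauda. Calca had 139 UMIs in all cells, and Calcr, the calcitonin receptor gene, fewer than 20.

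In the neuropeptide Y family, to which Ppy belongs, 4 of 7 genes were counted, and 3 were called lower and 0 higher in caput over corpus principal cells (median log2 ratio -3.95). Npy itself ran opposite to Ppy: it held 9.49 CPM in caput, 2011 CPM in corpus and 1204 CPM in cauda principal cells. The receptor genes were low, with Npy1r between 0.633 and 2.20 CPM, Npy6r between 1.60 and 9.0 CPM and Npy2r between 0 and 7.86 CPM in principal cells of the 3 regions. In the RFamide list 2 of 9 genes reached 20 UMIs: Kiss1r with 80 UMIs and Npffr1 with 27.

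Around Pnmt, Ddc was called higher in caput over corpus and in caput over cauda principal cells. The genes that make the substrate of the enzyme were scarce: Th, the rate-limiting enzyme of the pathway, had 30 UMIs in all cells, and Ddc held 8.23 CPM in caput, 1.75 CPM in corpus and 1.47 CPM in cauda principal cells (both chosen after their values were seen). Qdpr and Pts, genes of the pterin cofactor, held 160.2 and 86.5 CPM in caput principal cells. Maoa and Maob, the monoamine oxidases, stood in background cells, at 78.8 and 18.8 CPM in the caput.

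The adrenergic receptor genes were split between the classes. Adra1a held 56.1 CPM in caput, 32.8 CPM in corpus and 18.1 CPM in cauda clear cells, and was called higher in caput clear than in other caput cells. Adra1b was called higher there too, at 6.79 CPM in caput clear cells. Adra2a stood in basal cells, at 9.03, 7.67 and 15.8 CPM, and Adra2c in principal cells, at 14.0 CPM in the caput, 0.961 CPM in the corpus and 8.81 CPM in the cauda.

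Of the partners of Ntsr2, Nts, which encodes neurotensin itself, held 66.3 CPM in caput, 26.5 CPM in corpus and 1.95 CPM in cauda background cells, but 0.819 CPM or less in principal cells. Ntsr1, the other neurotensin receptor gene, had 51 of its 55 UMIs in caput principal cells, at 1.90 CPM. Sort1, the sorting receptor sortilin that also binds neurotensin, was even over principal cells at 98.6, 102 and 113 CPM.

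Of the glutamate receptor list 11 of 24 genes had enough UMIs. In caput over corpus principal cells 0 of 7 tested were called higher and 2 lower (Grik5 and Grid1), with a median log2 ratio of -0.70. The other AMPA receptor genes did not share the level of Gria2 there: in caput principal cells Gria3 held 2.49 CPM, Gria1 0.223 CPM and Gria4 0.0372 CPM (Gria1 was chosen after its values were seen). Adarb1, an enzyme that edits glutamate receptor RNA, held 1.56 CPM in caput principal and 19.4 CPM in caput basal cells, close to the 20.9 CPM of caput background cells.

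Genes that process peptide hormones differed by class. In the caput 2 of 14 were called higher in basal over other cells (Cpe and Furin) and 0 lower, and 2 higher in clear over other cells (Scg5 and Mme) and 1 lower (Pcsk5). Cpe, a carboxypeptidase that trims hormone precursors, held 369.5 CPM in caput, 153.5 CPM in corpus and 345 CPM in cauda basal cells. Scg5 held 149.7 CPM in caput, 155 CPM in corpus and 102 CPM in cauda clear cells. It encodes a helper protein of the prohormone convertase of Pcsk2 (both genes chosen after their values were seen). Pcsk2 had 1 UMI in caput clear cells and 0 in those of the corpus and cauda, and 64 of its 88 UMIs lay in corpus principal cells. Pcsk5, a convertase that cuts at basic residues, held 56.3 CPM in caput, 4.81 CPM in corpus and 8.57 CPM in cauda principal cells, 11.7-fold higher in the caput than in the corpus (8.96 to 15.6), with 89.3 CPM in caput basal and 62.6 CPM in caput background cells. Pam, which forms the amide end of amylin and RFamide peptides, held 9.27 CPM in caput principal, 80.1 CPM in caput clear and 58.2 CPM in caput basal cells, and 157 CPM in caput background cells.

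Among 12 other peptide hormone genes with enough UMIs, 1 of 9 tested was called higher in caput over corpus principal cells (Vip) and 1 lower (Edn1). Vip held 9.72 CPM in caput and 0.524 CPM in corpus principal cells and was at 0 in those of the cauda. Edn3, the endothelin-3 precursor, was a clear-cell gene in every region, at 353 CPM in the caput, 664 CPM in the corpus and 795 CPM in the cauda. Penk, the enkephalin precursor, stood highest in background cells, at 345, 1090 and 2048 CPM.

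**Figure D5:**
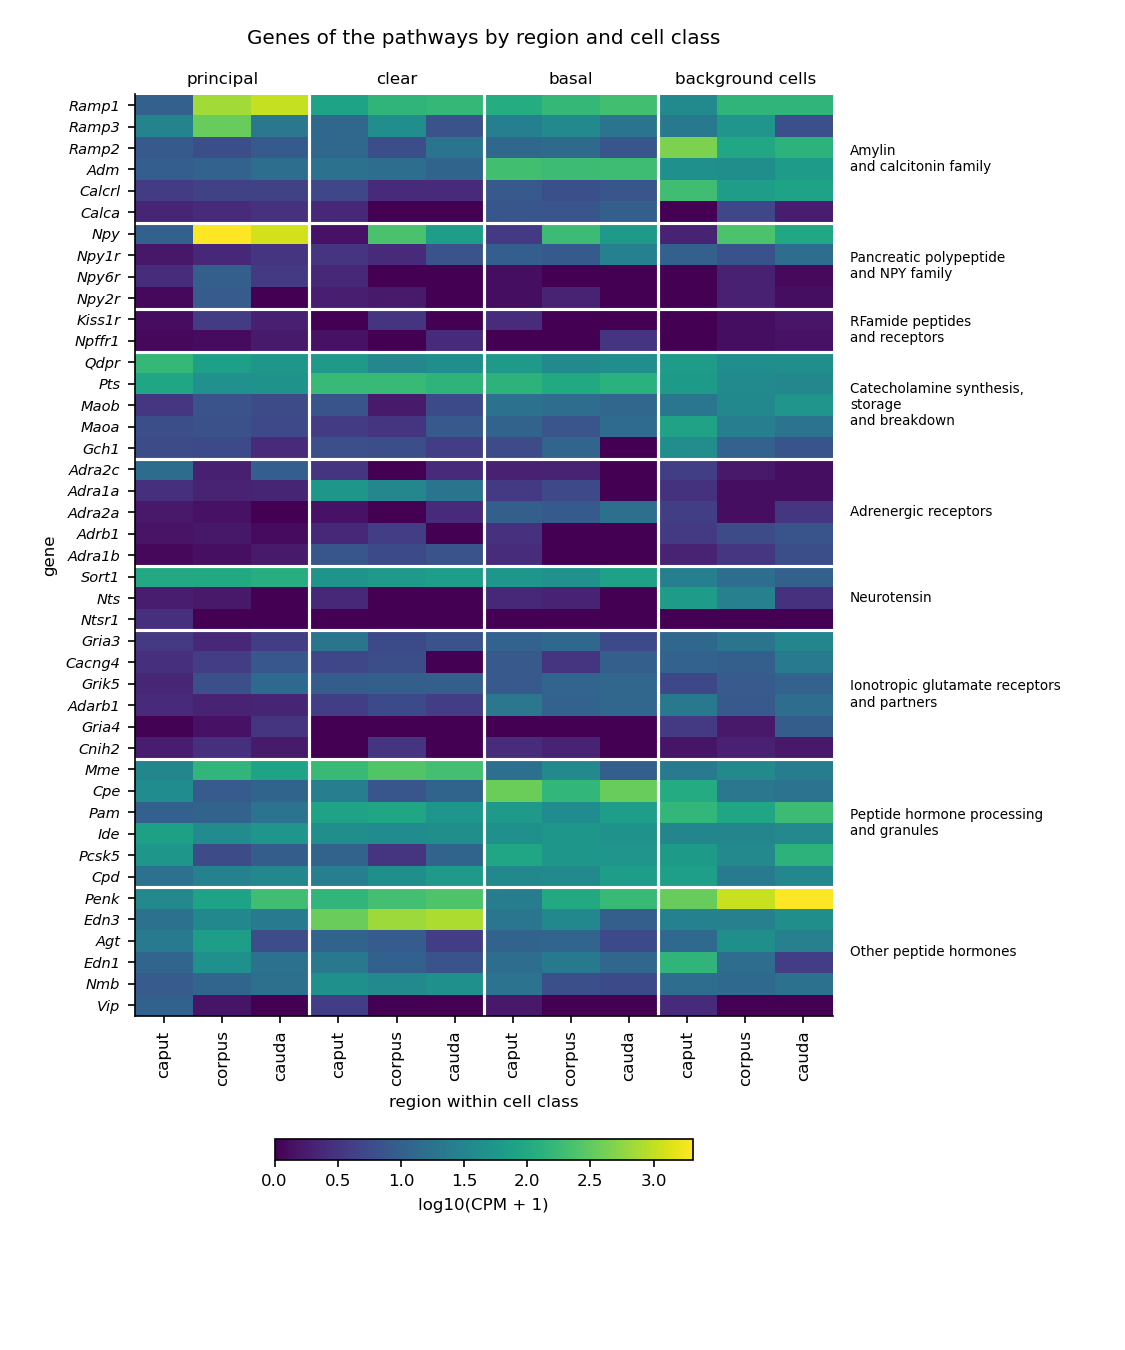
Levels of abundant genes of each list (rows, grouped by list at the right) across regions within principal, clear, basal and background cells (columns), as log10(CPM + 1) by colour. Ramp1 and Npy are bright in corpus and cauda principal cells, Adra1a and Edn3 in clear cells, Adm and Cpe in basal cells, and Penk in background cells of the corpus and cauda.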

How the data were processed

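Single-cell libraries of the caput, corpus and cauda epididymis, 1 per region, were made with the Singleron GEXSCOPE kit and sequenced on an Illumina instrument, per the labels' protocols. The values are raw UMI counts per gene and cell as the authors deposited them, made with STAR 2.7.3a and UMI-tools on GRCm38.p6, per the submitters' processing notes. How cells were told from empty wells, which annotation was used and whether counting was stranded were not stated. The 6 genes and the lists were chosen with earlier results of these data known, and the thresholds of the gates were set after marker levels had been seen.

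Of 14845 cells, 14555 with at least 200 detected genes were kept. Within each region the UMIs of a class were added up and scaled to CPM, with exact Poisson 95% intervals. Ratios have an exact conditional binomial interval, and a count of 0 was set to 3 UMIs over the group. No test across samples was possible with 1 library per region. Shares of cells with a UMI have Clopper-Pearson intervals, before and after thinning each cell to 1000 UMIs, with shallower cells left out. Clusters (Leiden, resolution 1, 2000 variable genes, 30 components, 15 neighbours) were made without the 6 genes with scanpy 1.11.5. No doublet caller was run: cells passing several gates were kept out of all classes, and leaving out the 5% of cells with the most UMIs was an alternative. Named partner genes are the 6 of each list with the most UMIs, and named like genes the 5 with the highest r; results for some genes of the lists are not reported here. Positions and coding sequences come from GENCODE M21. Python 3.11.15, numpy 2.4.6, scipy 1.17.1 and pandas 2.3.3 were used, with TMM factors from edgeR 4.0.16.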

Additional observations from a re-analysis of the deposited data

How the results depend on the processing

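Ratios of the 6 genes were recomputed under up to 12 alternatives each, and the counts here are of recomputations. In 457 of them direction and call were kept, 29 lost the call, 32 gained it and 1 reversed. The reversed one was Iapp in caput basal over other cells (log2 ratio 0.61 without the 1% of cells with the most UMIs of each gene). Ratios not called at first were entered only where an alternative called them, so the gains have no matching count of those that stayed uncalled. Of the recomputed counts of genes called, 180 stayed within 1.5 times of those reported and 29 did not. With classes from the clusters, 4 genes were called in clear caput over corpus, 1 in basal caput over corpus, 1 in basal caput over cauda, 3 in caput basal and 1 in cauda clear over other cells. Without the 5% of cells with the most UMIs, 1 was called in basal caput over cauda, and over other cells 0 in corpus principal, 2 in corpus clear, 1 in corpus basal and 1 in cauda basal cells. Without the 1% of cells with the most UMIs of each gene, 1 was called in basal caput over cauda, 1 in corpus basal and 1 in cauda basal over other cells. With TMM and with median-of-ratios factors alike, 2 were called in corpus principal, 3 in corpus clear and 1 in cauda clear over other cells. These factors moved the median log2 ratio of all genes for principal over other cells by 0.27 to 0.55. With at least 50 UMIs required, 0 were called in corpus principal, 0 in corpus clear and 1 in cauda basal over other cells. With 1 more marker per gate, 2 were called in corpus clear and 1 in cauda clear over other cells, and without cells over 20% mitochondrial UMIs, 2 in corpus clear. Against cells that passed exactly 1 other gate, an alternative chosen after seeing the data, 5 were called in caput principal, 3 in corpus principal and 2 in corpus clear cells. Without thinning, 13 combinations of gene, region and class had a share above background, against 7 with it. The cause of these changes was not tested. No paired analysis was possible because each region has 1 library. The 64 gated cauda basal and 103 cauda clear cells limit what is detectable there.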
